A study of Mus musculus with 12 samples.

Results

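The comparison described here is that of F1 embryonic testes whose mothers were exposed to *thia* (thiacloprid, a neonicotinoid insecticide) with F1 control testes. It uses 6 of the 12 RNA libraries of the study, the 3 libraries labelled F1 *thia* and the 3 labelled F1 control, chosen by their labels. Pregnant outbred Swiss (RjOrl) females received *thia* by gavage from E6.5 to E15.5 at a dose of 6 mg/kg/day, or the vehicle alone at a dose of 0, and male embryos were dissected at E15.5. The mice carried no transgene or mutation. Each library was made from the pooled testes of 3 embryos, so a replicate is a pool and differences between single embryos were not measured. The other 6 libraries, 3 control and 3 *thia* pools of F3 testis, descended from treated or control mice through males and were used to look up the genes found in F1 and to test the difference between the generations.

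At this age the germ cells of the male fetus, the gonocytes, leave the proliferating state of primordial germ cells. They lower their pluripotency genes, switch on the male germ cell program with *Nanos2* and *Dnmt3l*, begin to rebuild DNA methylation, and arm the piRNA pathway, which silences transposons with small RNAs. Around them lie Sertoli cells, which form the cords, fetal Leydig cells, which make androgens, and interstitial, vascular and immune cells. The gonad lies against the mesonephros, whose ducts become the epididymis, and close to the adrenal and the body wall. Nicotinic acetylcholine receptors, the targets of neonicotinoids, are ion channels of nerve, muscle and other cells.

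The deposited values are raw read counts per gene symbol, and the 6 totals ran from 25081647 in control 3 to 62786622 in *thia* 3. They are given here as CPM, read counts scaled to a common library size with TMM factors. Fold changes are *thia* over control on the log2 scale and come, with their standard error (SE) and p, from the quasi-likelihood test of edgeR over 19137 genes. Counts of replicate pools differed by more than sampling noise, with a chi-square per degree of freedom of 28.4 to 42.2. The defining genes of the testis were present in every pool. The summed level of 7 Sertoli cell markers was 1183 to 1460.0 CPM in control and 1363 to 1724 CPM in *thia* pools, and that of 6 fetal Leydig cell markers was 3380.2 to 4015 CPM and 2835 to 4353 CPM. *Xist*, the female transcript, stayed at or below 1.56 CPM in all 6 pools.

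After Benjamini-Hochberg adjustment over all genes, 2 genes had an adjusted p under 0.15 with edgeR, the threshold of the study, which is 0.0105% of the genes tested. They were *Gas5*, a host gene of small nucleolar RNAs, and *Dppa3*, a gonocyte and oocyte gene that protects DNA methylation in the early embryo. The third smallest adjusted p was 0.201. The count depended on the fit. At the same threshold DESeq2, the tool of the study, gave 82 higher and 88 lower genes, edgeR without a filter on low counts 243 and with robust dispersions 15, while without control 2, or with all 12 libraries in one fit, 0 genes passed. It was 20 without control 1, 1 without *thia* 1 and 1 without *thia* 3. For all other genes below, the fold change and the position of the pools are therefore given as measurements with an unadjusted p, and "higher" and "lower" describe the values without a call in the edgeR fit. At an unadjusted p under 0.05, 886 genes (4.63%) were higher and 791 (4.13%) were lower in *thia* pools. These shares are the background for the counts of list members given below for the full fit. In 1430 genes (7.47%) every *thia* pool lay above every control pool, and in 1319 genes (6.89%) every *thia* pool lay below.

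Germ cell genes were counted among the genes with the smallest p. Of the 30 lower genes with the smallest p and pools that did not overlap, 9 belonged to the lists of gonocyte, piRNA or meiotic genes, against 0 of the 30 such higher genes. These lists hold 123 of the 19137 genes tested, and the share was not tested, since the lists were chosen with earlier results known. Of the 30 higher genes 3 were in the skeletal muscle list, and *Myh4*, a myosin outside that list, was a further muscle gene. The log2 fold changes of these 30 lower genes ran from -2.5 to -0.46, and those of the 30 higher genes from 0.44 to 1.54.

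**Figure D1:**
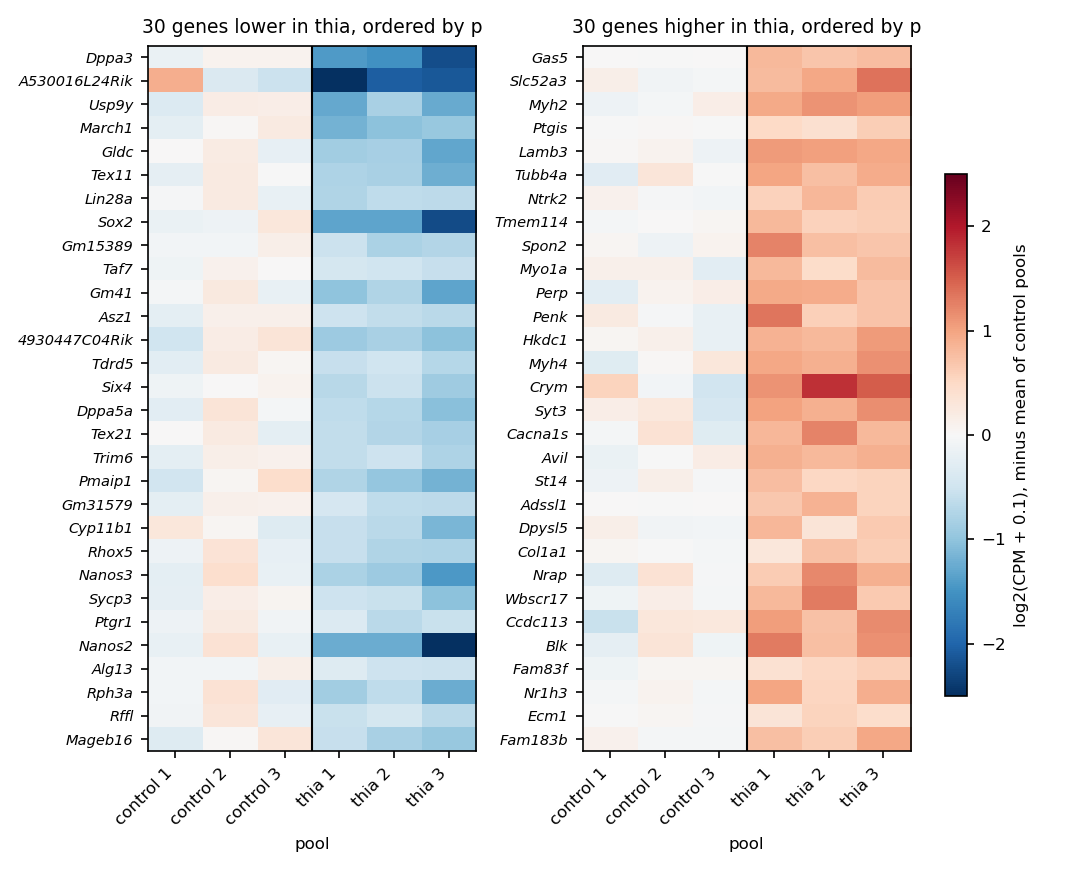
Level of the 30 lower (left) and 30 higher (right) genes with the smallest p in each F1 pool, as log2(CPM + 0.1) minus the mean of the 3 control pools. Blue is below and red above the control mean. The genes were chosen for pools that do not overlap, so the split at the black line is given by the choice, and the picture shows how even the pools are within each group.

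The germ cell lists are described first. Of 123 tested genes in the gonocyte, piRNA and meiotic lists together, 39 were lower and 3 were higher at an unadjusted p under 0.05 with edgeR. This compares with 4.13% lower and 4.63% higher among all genes. Pools did not overlap in 33 of the 123 genes that were lower and in 4 that were higher, beside 6.89% and 7.47% of all genes. The median log2 fold change of the 123 genes was -0.18, beside 0.01 over all genes. Without *thia* 2, the pool with a muscle signal described further on, 33 of them were lower and the median was -0.22, beside 3.39% lower among all genes in that fit. Without *thia* 3 the count of lower genes was 26, while over all genes 347 were lower in that fit, against 791 with every pool. Over all genes 472 were lower without control 3 and 1285 without control 1. The counts of lower genes without 1 library given below for other lists stand beside these totals. Fewer germ cells and less RNA per germ cell cannot be told apart in pools of whole testes. The summed level of 8 germ cell markers was 957 to 1286 CPM in control and 828 to 1018 CPM in *thia* pools, and these ranges overlap.

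**Figure D2:**
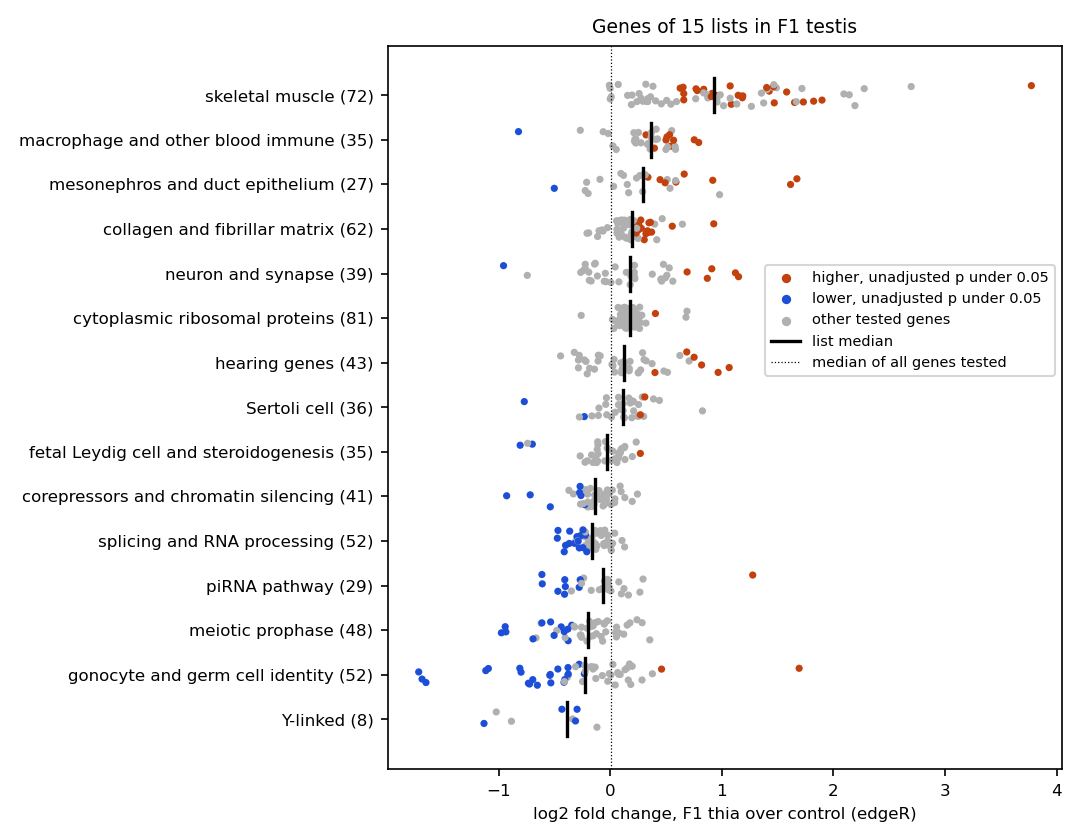
Log2 fold change in F1 of the genes of 15 lists, with 1 point per gene, the number tested in parentheses and a black bar at the list median. Points with an unadjusted p under 0.05 are red (higher) or blue (lower), and the dotted line marks the median of all genes, 0.01. The medians run from -0.39 for the Y-linked genes to 0.93 for skeletal muscle.

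Regulators of early gonocytes stood out in the gonocyte list, in which 22 of 52 genes were lower and 2 were higher at an unadjusted p under 0.05 (median log2 fold change -0.23). *Dppa3* was at 68.4, 81.4 and 81.5 CPM in the control pools and at 28.7, 26.9 and 16.4 CPM in the *thia* pools (log2 fold change -1.69, SE 0.185, adjusted p = 0.0278, edgeR). *Sox2*, a pluripotency transcription factor, was at 3.46, 3.56 and 4.77 CPM in control and at 1.5, 1.51 and 0.752 CPM in *thia* pools (log2 fold change -1.65, SE 0.286, adjusted p = 0.201, edgeR). *Nanos2*, an RNA-binding protein that holds male germ cells out of meiosis, was at 5.30, 7.84 and 5.32 CPM and at 2.51, 2.52 and 0.687 CPM (log2 fold change -1.72, SE 0.402, adjusted p = 0.446, edgeR). In these 3 genes the *thia* pools lay below all control pools, with *thia* 3 the lowest.

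*Nanos3*, a relative of *Nanos2* that protects primordial germ cells from death, was at 4.76, 7.60 and 4.96 CPM in control and at 3.23, 2.95 and 2.01 CPM in *thia* pools (log2 fold change -1.09, SE 0.246, edgeR). *Nanog*, another pluripotency factor, was at 2.41, 2.69 and 2.80 CPM and at 1.30, 1.78 and 1.67 CPM, a log2 fold change of -0.73. *Dppa5a*, an RNA-binding protein of pluripotent and early germ cells that is not in the list, was at 17.3, 25.9 and 20.0 CPM and at 13.3, 12.7 and 9.99 CPM, a log2 fold change of -0.82. The pools of these genes did not overlap either. Further members of the list on the lower side were *Tcl1* (-1.11), *Dppa2* (-0.81), *Nr5a2* (-0.80) and *Trim71* (-0.72). *Pou5f1*, which is kept in gonocytes, had a smaller log2 fold change of -0.38 with pools that overlapped, at 138 to 217 CPM in control and 109 to 151 CPM in *thia* pools.

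Some germ cell genes did not follow. The germ cell genes *Piwil2*, *Piwil4*, *Dnmt3l*, *Mael* and *Tex101* were picked out after their values were seen. *Piwil2*, a piRNA-binding protein, was at 249, 349 and 317 CPM in control and at 289, 325 and 289 CPM in *thia* pools, a log2 fold change of -0.02 (SE 0.126). *Dnmt3l*, the cofactor of DNA methylation in gonocytes, was at 123, 167 and 126 CPM and at 150, 152 and 167 CPM, a log2 fold change of 0.17 (SE 0.122). *Mael*, a piRNA pathway protein, was at 314, 428 and 349 CPM and at 366, 329 and 346 CPM, a log2 fold change of -0.07 (SE 0.121). The groups overlapped in all 3. *Piwil4* and *Tex101* had log2 fold changes of 0.12 and 0.15.

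The summed CPM of *Dppa3*, *Sox2*, *Nanos2*, *Nanos3* and *Lin28a*, 5 lower genes, was 15.6, 12.8 and 13.2% of the summed CPM of these 5 genes in the control pools. It was 6.03, 6.12 and 4.88% in the *thia* pools. The denominator was 823, 1221 and 1043 CPM in control and 1065, 1050.4 and 1026 CPM in *thia* pools. *Ddx4*, the RNA helicase present in germ cells of all stages, lay between these groups of genes. It was at 180, 261 and 262 CPM in control and at 185, 175 and 148 CPM in *thia* pools (log2 fold change -0.47, SE 0.148, adjusted p = 0.507, edgeR), and control 1 lay below *thia* 1. Both sets were chosen with the values known, so the ratio is a description.

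**Figure D3:**
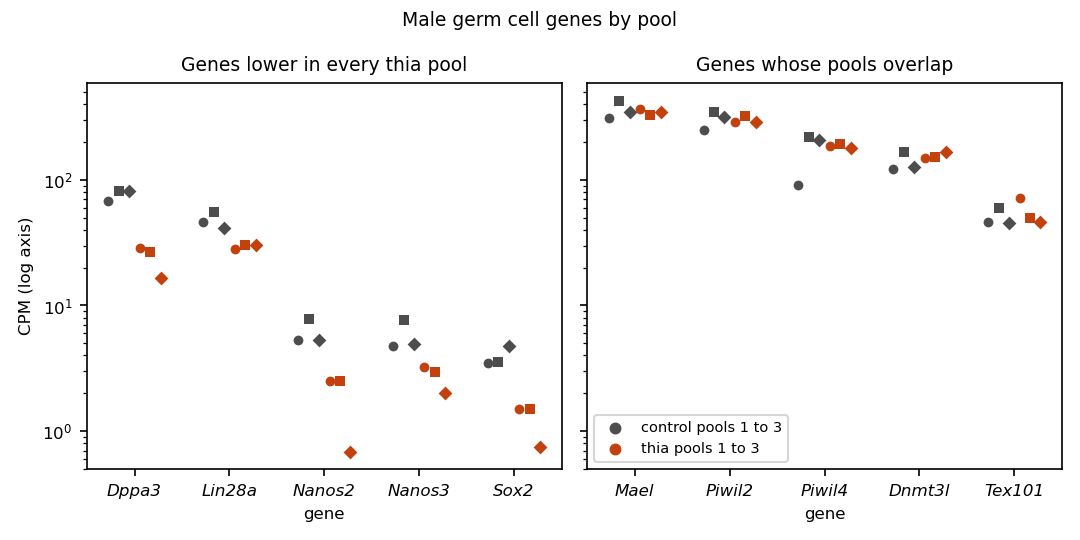
CPM on a log axis of 5 germ cell genes that were lower in every *thia* pool (left) and 5 whose pools overlapped (right), with a circle, square and diamond for pools 1, 2 and 3 in grey for control and orange for *thia*. *Dppa3* lies at 68.4 to 81.5 CPM in control and at 16.4 to 28.7 CPM in *thia* pools, and *Mael* at 314 to 428 CPM in all 6.

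Sequence upstream of these genes was read from RefSeq for GRCm38.p6 (mm10), from 250 bases before to 50 after the annotated start. The sequences are shown for 5 germ cell genes that were lower and for *Mael*, which was not, because germ cell promoters differ widely in their content of CpG, the dinucleotide that is methylated in mammals. No promoter sequence was available for *Dppa3* or *Piwil2*, so the choice depended on availability too. CpG dinucleotides are in capitals, and each line is 5′ to 3′ on the strand of the gene. The windows are chr7:18987274-18987573 (plus strand) for *Nanos2*, chr8:84176503-84176802 (minus) for *Nanos3*, chr3:34649745-34650044 (plus) for *Sox2*, chr6:18109012-18109311 (minus) for *Asz1*, chr10:88459337-88459636 (plus) for *Sycp3* and chr1:166238695-166238994 (minus) for *Mael*.
Nanos2: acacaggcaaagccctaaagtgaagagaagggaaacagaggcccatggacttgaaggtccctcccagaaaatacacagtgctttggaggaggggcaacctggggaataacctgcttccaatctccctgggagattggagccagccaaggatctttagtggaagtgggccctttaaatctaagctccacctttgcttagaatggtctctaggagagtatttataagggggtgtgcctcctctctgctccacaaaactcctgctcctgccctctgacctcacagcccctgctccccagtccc
Nanos3: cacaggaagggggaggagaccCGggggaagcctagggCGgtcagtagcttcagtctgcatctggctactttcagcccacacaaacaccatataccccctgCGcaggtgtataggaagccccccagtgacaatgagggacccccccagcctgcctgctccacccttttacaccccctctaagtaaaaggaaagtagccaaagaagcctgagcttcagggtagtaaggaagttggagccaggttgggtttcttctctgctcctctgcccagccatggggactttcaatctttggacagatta
Sox2: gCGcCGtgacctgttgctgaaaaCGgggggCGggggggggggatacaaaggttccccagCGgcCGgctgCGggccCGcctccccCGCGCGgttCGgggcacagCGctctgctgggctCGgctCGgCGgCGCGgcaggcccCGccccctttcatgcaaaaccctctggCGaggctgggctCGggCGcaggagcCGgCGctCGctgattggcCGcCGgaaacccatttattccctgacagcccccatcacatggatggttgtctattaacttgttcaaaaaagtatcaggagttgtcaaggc
Asz1: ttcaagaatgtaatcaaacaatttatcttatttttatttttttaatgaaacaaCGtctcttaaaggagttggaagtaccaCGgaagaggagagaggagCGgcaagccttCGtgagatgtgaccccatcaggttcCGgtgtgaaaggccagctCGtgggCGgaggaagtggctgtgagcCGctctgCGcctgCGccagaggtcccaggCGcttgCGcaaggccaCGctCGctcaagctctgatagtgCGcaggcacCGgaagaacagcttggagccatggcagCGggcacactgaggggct
Sycp3: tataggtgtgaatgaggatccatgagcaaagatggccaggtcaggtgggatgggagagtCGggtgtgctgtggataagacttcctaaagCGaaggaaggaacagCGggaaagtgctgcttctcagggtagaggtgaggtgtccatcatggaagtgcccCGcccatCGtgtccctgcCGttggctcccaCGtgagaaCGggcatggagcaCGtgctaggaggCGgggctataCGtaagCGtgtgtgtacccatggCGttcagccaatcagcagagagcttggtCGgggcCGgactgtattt
Mael: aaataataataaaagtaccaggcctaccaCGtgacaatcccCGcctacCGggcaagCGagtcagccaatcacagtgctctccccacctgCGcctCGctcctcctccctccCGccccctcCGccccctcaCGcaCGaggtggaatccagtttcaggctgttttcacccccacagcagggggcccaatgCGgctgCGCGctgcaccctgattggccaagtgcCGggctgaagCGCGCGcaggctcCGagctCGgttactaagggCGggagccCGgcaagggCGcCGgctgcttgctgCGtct
The windows hold 0 CpG in *Nanos2*, 3 in *Nanos3*, 27 in *Sox2*, 17 in *Asz1*, 15 in *Sycp3* and 24 in *Mael*, beside a median of 7 over 27025 promoters of the same length. The 5 lower genes thus spread from none to far above the median, and *Mael* lies within their range. The palindrome CACGTG occurs 2 times in *Sycp3*, 1 time in *Mael* and in none of the other 4, and 7.24% of all promoters hold it. A promoter sequence was found for 73.9% of the higher and 77.4% of the lower genes, too few to compare the sets, so no such comparison was made.

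In the piRNA list 8 of 29 genes were lower and 1 was higher at an unadjusted p under 0.05, with a median of -0.06. *Asz1*, a mitochondria-associated protein needed to make piRNAs, was at 56.2, 73.6 and 72.8 CPM in control and at 47.1, 43.8 and 41.7 CPM in *thia* pools (log2 fold change -0.61, SE 0.117, adjusted p = 0.31, edgeR). *Tdrd5*, a Tudor protein of the germ granule, was at 98.9, 137.5 and 121.9 CPM and at 79.3, 83.5 and 72.3 CPM (log2 fold change -0.61, SE 0.122). Both genes were lower in every *thia* pool. The higher member was *Tdrd6*, at 0.395, 0.417 and 0.394 CPM in control and 1.08, 0.637 and 1.19 CPM in *thia* pools. The count of 8 lower genes was 5 without *thia* 2, 5 without control 2, 3 without control 3 and 4 without *thia* 3.

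In the list of meiotic prophase genes, which male germ cells transcribe in part long before they enter meiosis, 12 of 48 genes were lower and 0 were higher at an unadjusted p under 0.05 with edgeR, with 38 of 48 fold changes below 0. *Sycp3*, a component of the axis of meiotic chromosomes, was at 21.8, 28.8 and 26.9 CPM in control and at 18.0, 17.5 and 12.5 CPM in *thia* pools (log2 fold change -0.69, SE 0.158, adjusted p = 0.428, edgeR). Its partner *Sycp2* was at 5.79, 7.06 and 9.37 CPM and at 5.58, 3.69 and 2.32 CPM, a log2 fold change of -0.94. The list also held *Smc1b* (-0.61), the meiotic cohesin, *Sycp1* (-0.50), of the central region of the synaptonemal complex, and *Mnd1* (-0.38), a recombination factor. *4930447C04Rik*, which is not in the list, was at 24.2, 38.7 and 42.7 CPM in control and at 18.1, 19.5 and 16.8 CPM in *thia* pools (log2 fold change -0.96, SE 0.183). The count of 12 was 8 without control 2, 7 without control 3 and 8 without *thia* 3.

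Among the 30 lower genes with the smallest p there were also genes outside the germ cell lists. *A530016L24Rik*, on chromosome 12 from 112489448 to 112499927, had the largest change of the 30. It was at 10.2, 4.16 and 3.70 CPM in control and at 0.822, 1.22 and 1.16 CPM in *thia* pools (log2 fold change -2.5, SE 0.383, adjusted p = 0.201, edgeR), and control 1 was more than 2-fold above all other pools. *Gldc*, an enzyme of glycine cleavage, on chromosome 19 from 30098447 to 30175429, was at 13.6 ± 1.95 CPM in control (SD, n = 3, lowest pool 11.6) and at 7.34, 7.49 and 5.38 CPM in *thia* pools (log2 fold change -1.02, SE 0.168). *Taf7*, a subunit of the general transcription factor TFIID, was at 145, 169 and 158 CPM and at 116, 111 and 105 CPM (log2 fold change -0.51, SE 0.0914). The *thia* pools were below all control pools in each. *Rhox5* and *Mageb16*, X-linked genes of reproductive tissue, had log2 fold changes of -0.73 and -0.80, and *Pmaip1*, a proapoptotic BH3-only gene, -1.01.

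Genes of the Y and X chromosomes are given beside the background of 4.13% lower genes, with no test of the difference. The paper states that the dissected embryos were male, and testes were sampled in both groups. All 8 tested genes of the Y-linked list had a fold change below 0, with a median of -0.39, and 4 had an unadjusted p under 0.05. Over the whole Y chromosome 10 of 11 tested genes were below 0, with a median of -0.315, and 4 were lower at that p. *Usp9y*, a ubiquitin protease on chromosome Y from 1298961 to 1459782, was at 12.9, 18.6 and 18.4 CPM in control and at 6.68, 9.37 and 6.82 CPM in *thia* pools (log2 fold change -1.13, SE 0.182, adjusted p = 0.201, edgeR). *Eif2s3y*, a translation factor needed for spermatogonia, was at 60.7, 72.4 and 81.3 CPM and at 49.5, 58.3 and 50.8 CPM (log2 fold change -0.43, SE 0.119). *Kdm5d*, a histone demethylase, differed less, at 30.3, 28.4 and 34.3 CPM and 28.2, 30.5 and 26.9 CPM. Of 701 tested genes on the X chromosome, 54 (7.70%) were lower and 22 were higher at an unadjusted p under 0.05, with a median of -0.05. The Y-linked count of 4 was 2 without control 3 and 2 without *thia* 3, where 472 and 347 genes were lower over all genes.

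A list of splicing factors was lower as well. Of its 52 tested genes 46 had a fold change below 0, with a median of -0.17, and 16 were lower and 0 higher at an unadjusted p under 0.05 with edgeR. *Srsf10*, a splicing repressor, was at 196, 202 and 287 CPM in control and at 177, 163 and 175 CPM in *thia* pools (log2 fold change -0.41, SE 0.139, adjusted p = 0.518, edgeR). *Tra2a*, a splicing activator, was at 108, 107 and 143 CPM and at 98.6, 79.5 and 92.9 CPM (log2 fold change -0.40, SE 0.129). *Ogt*, the enzyme that adds O-GlcNAc to nuclear proteins, whose own messenger RNA is regulated by splicing, was at 105, 118 and 151 CPM and at 107, 89.5 and 73.5 CPM (log2 fold change -0.47, SE 0.158). In these genes control 3, the library with the fewest counts, was the highest pool. Without control 3 the count was 4 genes and the median was -0.08, and the count was 4 without *thia* 3 and 5 without *thia* 2. Over all genes the lower genes in these fits numbered 472, 347 and 666. In a list of 41 corepressors and chromatin silencers, 7 genes were lower and 0 higher, among them *Six4* (-0.72), *Sall1* (-0.93), *Sall4* (-0.54), *Sin3a* (-0.27) and *Ezh2* (-0.23). That count was 4 without control 3, 3 without *thia* 1 and 3 without *thia* 3.

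The skeletal muscle genes had the highest median of all 37 lists. Of 72 tested genes 69 were above 0, with a median log2 fold change of 0.93, and 25 were higher and 0 lower at an unadjusted p under 0.05 with edgeR. A single pool stood apart in these genes. In *thia* 2, 92 genes stood more than 2-fold above every other pool, and 36 of them were in the muscle list. In each of the other 5 pools 9 to 27 genes stood out in this way, and 0 of them were muscle genes. The summed level of 15 skeletal muscle markers was 120, 76.3 and 58.7 CPM in the control pools and 91.7, 653 and 73.1 CPM in the *thia* pools. The ratio of group means was 3.21, and 0.969 without *thia* 2 (exact permutation test of the 6 pools, two-sided p = 0.6, where 0.1 is the smallest p it can give).

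*Myh3*, the embryonic myosin heavy chain, was at 8.90, 4.24 and 3.27 CPM in control and at 9.49, 214 and 5.69 CPM in *thia* pools. *Acta1*, skeletal muscle actin, was at 21.6, 2.71 and 2.28 CPM and at 7.72, 167.5 and 1.90 CPM. *Ckm*, muscle creatine kinase, was at 5.46, 2.52 and 2.13 CPM and at 4.61, 28.2 and 3.73 CPM. Only *thia* 2 stood apart in these 3 genes, and control 1 was the next pool for *Acta1* and *Ckm*. The transcription factors *Myog* (13.0 CPM in *thia* 2, 0.887 to 4.27 CPM elsewhere) and *Myod1* (4.81 CPM, 0.196 to 1.49 CPM elsewhere) showed the same pattern. So did *Tnmd*, a tendon gene, at 18.3 CPM in *thia* 2 and at 0.114 to 0.421 CPM in the other pools, and *Atp1b4*, at 12.7 CPM and 0.0327 to 0.241 CPM.

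Other muscle genes were higher in every *thia* pool. *Myh2*, an adult fast myosin, was at 2.04, 2.16 and 2.52 CPM in control and at 4.41, 4.97 and 4.71 CPM in *thia* pools. Its neighbour *Myh1*, on chromosome 11 from 67200052 to 67224575, was at 3.07, 3.58 and 2.84 CPM and at 4.79, 5.58 and 4.64 CPM (log2 fold change 0.65, SE 0.176, adjusted p = 0.446, edgeR). *Myh4*, the next gene on that strand, from 67238029 to 67260446, was at 1.12, 1.44 and 1.73 CPM and at 2.85, 2.68 and 3.22 CPM (log2 fold change 1.04, SE 0.224, adjusted p = 0.408, edgeR). In these 3 fast myosin genes *thia* 2 was within 1 CPM of the other *thia* pools, the highest of them for *Myh2* and *Myh1* and the lowest for *Myh4*. The 3 myosins are close in sequence, and reads shared between them could have been counted for another copy. *Myh3* belongs to the same cluster and did not share the pattern.

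*Cacna1s*, the calcium channel that couples excitation to contraction, was at 3.57, 4.75 and 2.95 CPM in control and at 6.66, 8.84 and 6.51 CPM in *thia* pools (log2 fold change 0.95, SE 0.21, adjusted p = 0.408, edgeR). *Nrap*, an anchoring protein of growing myofibrils, was at 4.63, 7.49 and 5.75 CPM and at 9.13, 13.6 and 10.9 CPM (log2 fold change 0.91, SE 0.207). Without *thia* 2 their log2 fold changes were 0.79 and 0.74. Of the 72 genes, 17 had every *thia* pool above every control pool, beside 7.47% of all genes, and 4 of these 17 were also among the 36. Taken singly, *thia* 1, 2 and 3 lay above every control pool in 33, 66 and 23 of the 72 genes. Over all genes tested these shares were 25.9%, 26.2% and 30%. Since *thia* 2 met the condition in 66 genes, 7.47% is not a matched background for the 17. Over the 36 genes, the median distance from the control mean was 0.32, 2.69 and -0.27 (log2) in *thia* 1, 2 and 3. Over the 17 genes it was 0.60, 1.14 and 0.64, where the choice of the genes fixes the sign. For the whole list without *thia* 2, 13 of 72 genes were higher and 0 lower at an unadjusted p under 0.05 with edgeR, beside 4.55% higher among all genes in that fit, and the median was 0.05. Without any other single pool the median was 0.86 to 1.13. The count of 25 was 16 without control 3, 44 without *thia* 1 and 51 without *thia* 3.

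**Figure D4:**
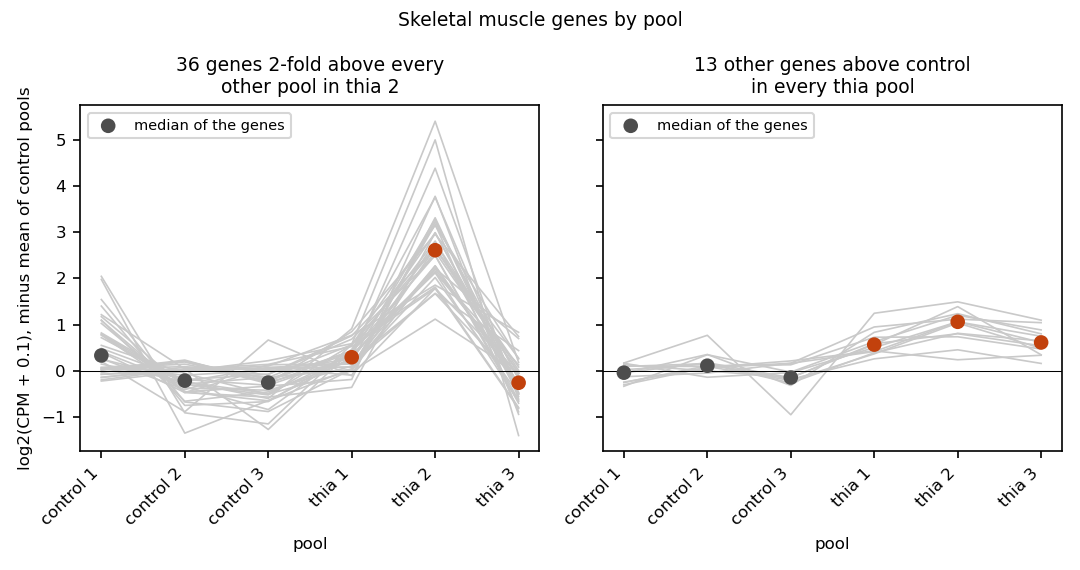
Skeletal muscle genes by pool, as log2(CPM + 0.1) minus the mean of the 3 control pools, with 1 grey line per gene and a point at the median. The 36 genes on the left were chosen for standing more than 2-fold above every other pool in *thia* 2, where they peak, and the 13 other genes on the right were chosen for lying above all control pools in every *thia* pool.

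In 3 other pools genes known from other organs stood out. The 8 liver plasma protein genes, chosen after their values were seen, summed to 454, 111 and 191 CPM in control and to 79.2, 168 and 73.0 CPM in *thia* pools. *Alb* alone was at 226 CPM in control 1 and at 23.7 to 88.1 CPM elsewhere. *Pnliprp1*, a lipase of the exocrine pancreas, was at 12 CPM in control 2 and at 0.63 to 1.42 CPM in the other pools. *Cdh16*, a kidney and duct cadherin, was at 5.88 CPM in *thia* 1 and at 0.373 to 1.5 CPM elsewhere. Each of these genes was thus highest in a different pool. No such set was picked out in control 3 or *thia* 3. The plasma protein gene *Pzp*, at 6.73, 1.76 and 2.21 CPM in control and 0.722, 1.57 and 0.85 CPM in *thia* pools, was among the 8 lower genes with the largest change and was highest in control 1 too. *Trf*, a transferrin gene of Sertoli cells and liver, was at 86.8 CPM in control 1 and at 25.4 to 42.0 CPM elsewhere. The part of these tissues in the genes described above was not tested.

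Macrophage and other immune genes were higher. Of 35 tested genes 31 were above 0, with a median of 0.37, and 10 were higher and 1 lower at an unadjusted p under 0.05. That is 28.6% higher and 2.86% lower, beside 4.63% and 4.13% of all genes. *C1qc*, a complement subunit made by tissue macrophages, was at 8.70, 6.59 and 6.58 CPM in control and at 12, 10.0 and 9.89 CPM in *thia* pools (log2 fold change 0.54, SE 0.158, adjusted p = 0.481, edgeR). *C1qa*, its partner, was at 11.1, 8.99 and 7.96 CPM and at 16.3, 11.6 and 12.1 CPM (log2 fold change 0.51, SE 0.171). *Csf1r*, the receptor on which macrophages depend, was at 17.8, 15.1 and 14.0 CPM and at 21.9, 19.2 and 20.5 CPM (log2 fold change 0.40, SE 0.118). The pools of these 3 genes did not overlap, and *thia* 1 was highest. The 6 macrophage markers include *C1qa* and *Csf1r*. They summed to 62.8 to 75.5 CPM in control and 79.8 to 97.0 CPM in *thia* pools, with 0 of them absent from any pool (exact permutation test, two-sided p = 0.1, the smallest p it can give). *Gzma*, a protease of natural killer and T cells, was the lower member, at 3.55, 4.14 and 2.25 CPM and at 1.93, 2.1 and 1.67 CPM. The count of 10 was 3 without control 3, 4 without control 2, 4 without *thia* 3 and 6 without *thia* 1.

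Collagen and fibrillar matrix genes were higher by small amounts. Of 62 tested genes 55 were above 0, with a median of 0.19, and 15 were higher and 0 lower at an unadjusted p under 0.05 with edgeR. In 22 of the 62 genes every *thia* pool was above every control pool, beside 7.47% of all genes. *Spon2*, a secreted matrix protein, was at 5, 4.45 and 5.16 CPM in control and at 11.6, 8.26 and 7.88 CPM in *thia* pools (log2 fold change 0.93, SE 0.181, adjusted p = 0.315, edgeR). *Col6a1* and *Col6a2*, chains of the same microfibrillar collagen, had log2 fold changes of 0.32 and 0.35. *Col6a1* was at 747, 689 and 662 CPM and at 825, 829 and 965 CPM. *Col3a1*, of reticular fibres, was at 3099, 2946 and 2946 CPM and at 3237, 3887 and 3750 CPM (log2 fold change 0.27, SE 0.107), and *Eln*, elastin, had 0.37. The count of 15 was 5 without control 2 and 10 without *thia* 2.

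Epithelial and duct genes were among the higher genes. *Lamb3*, a laminin chain of epithelial basement membranes on chromosome 1 from 193207699 to 193343878, was at 2.08, 2.17 and 1.85 CPM in control and at 4.37, 4.22 and 4.04 CPM in *thia* pools (log2 fold change 1.04, SE 0.178, adjusted p = 0.201, edgeR). *Perp*, a desmosome gene, was at 2.87, 3.70 and 3.90 CPM and at 6.74, 6.64 and 5.74 CPM (log2 fold change 0.87, SE 0.177). *St14*, an epithelial membrane protease, was at 6.80, 8.22 and 7.25 CPM and at 12.7, 10.7 and 11 CPM (log2 fold change 0.62, SE 0.138). All *thia* pools were above the control pools in these genes. *Lamb3* and *Perp* belong to a list of mesothelium and epithelium genes. Of its 24 tested genes 4 (16.7%) were higher and 1 (4.17%) was lower at an unadjusted p under 0.05, with a median of 0.12. Over all genes 4.63% were higher and 4.13% lower. The lower member was *Bnc2* (-0.30), with every *thia* pool below every control pool. The 5 mesothelium markers summed to 154.6 to 206.2 CPM in control and 134.1 to 293.4 CPM in *thia* pools. Without 1 library the count of 4 was 3 to 7. In the list of mesonephros and duct genes 8 of 27 (29.6%) were higher and 1 (3.7%) was lower at an unadjusted p under 0.05, with a median of 0.30. *Krt8*, a simple epithelial keratin, was at 45.6, 44.1 and 38.4 CPM and at 67.6, 53.2 and 54.1 CPM (log2 fold change 0.45, SE 0.118, adjusted p = 0.446, edgeR), with *thia* 1 the highest. *Pax2*, a transcription factor of the mesonephric duct, was at 1.6, 1.72 and 1.58 CPM and at 2.17, 2.34 and 2.40 CPM. The 6 duct markers summed to 33.3 to 44.8 CPM in control and to 36.2 to 60.7 CPM in *thia* pools, with *thia* 1 the highest and the groups overlapping. The count of 8 was 2 without control 3, 4 without *thia* 1 and 5 without control 1, and the median without *thia* 1 was 0.14.

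In the list of nerve and synapse genes 5 of 39 (12.8%) were higher and 1 (2.56%) was lower at an unadjusted p under 0.05. The shares over all genes were 4.63% and 4.13%. The median was 0.18, and 0.03 without *thia* 1. *Tubb4a*, a neuronal tubulin on chromosome 17 from 57080066 to 57087782, was at 9.38, 14.1 and 11.4 CPM in control and at 22.7, 19.3 and 21.9 CPM in *thia* pools (log2 fold change 0.87, SE 0.15, adjusted p = 0.201, edgeR). *Ntrk2*, the receptor of brain-derived neurotrophic factor, was at 8.04, 7.32 and 7.17 CPM and at 11.3, 13.5 and 11.7 CPM (log2 fold change 0.69, SE 0.131, adjusted p = 0.31, edgeR). *Penk*, the precursor of enkephalin peptides, was at 18.9, 15.9 and 14.2 CPM and at 41.1, 24.4 and 26.8 CPM (log2 fold change 0.91, SE 0.19). These 3 genes were higher in every *thia* pool. The 6 nerve markers summed to 8 to 9.15 CPM in control and 9.35 to 16.8 CPM in *thia* pools, and *thia* 1 was the highest.

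Subunits of the nicotinic receptor, on which *thia* acts, were looked at as a family. Of 14 tested subunits 13 were above 0, with a median of 0.38. However, 1 (7.14%) was higher at an unadjusted p under 0.05, beside 4.63% of all genes. This was *Chrna1*, the muscle subunit, at 0.526, 0.243 and 0.394 CPM in control and at 0.401, 2.1 and 0.67 CPM in *thia* pools, the highest in *thia* 2. *Chrnb1*, the other subunit common to muscle receptors, was at 4.71, 6.15 and 6.78 CPM and at 7.90, 6.90 and 7.39 CPM (log2 fold change 0.34, SE 0.17). The neuronal subunits *Chrna4* and *Chrna7* were at 6.26 to 6.83 CPM and 3.33 to 3.86 CPM in control, with log2 fold changes of 0.17 and 0.21 that were within 2 SE. Without *thia* 2 the median of the family was 0.26.

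Steroidogenic genes had a median near 0 (35 genes, median -0.03, 2 lower and 1 higher at an unadjusted p under 0.05). That is 5.71% lower and 2.86% higher, near the 4.13% and 4.63% of all genes. Without *thia* 3 the median was -0.12 with 6 lower, without *thia* 1 it was 0.07, and 1 was lower without control 2. *Cyp11b1* and *Cyp21a1*, the enzymes of corticosteroid synthesis that mark adrenal-like cells, were lower. *Cyp11b1* was at 36.5, 30.9 and 24 CPM in control and at 20.2, 18.7 and 13.5 CPM in *thia* pools (log2 fold change -0.81, SE 0.179, adjusted p = 0.408, edgeR). *Cyp21a1* was at 16.9, 26.3 and 17.4 CPM and at 10.5, 16.8 and 10.4 CPM (log2 fold change -0.70, SE 0.219). The 5 adrenal markers summed to 56.3 to 72.2 CPM in control and 43.7 to 53.4 CPM in *thia* pools. *Cyp11b1* and *Cyp21a1* are among these markers, so the sum in part repeats their values. In the list of adrenal cortex and chromaffin genes, 3 of 13 (23.1%) were higher and 2 (15.4%) lower at an unadjusted p under 0.05. Its median was -0.04, with 6 genes above 0 and 7 below. The 2 lower genes of this list and of the steroidogenic list were the same, *Cyp11b1* and *Cyp21a1*. *Dbh* and *Pnmt*, enzymes of catecholamine synthesis, were on the higher side. *Dbh* was at 0.197, 0.139 and 0.197 CPM in control and at 0.261, 0.425 and 0.458 CPM in *thia* pools (log2 fold change 1.12, SE 0.401), and *Pnmt* had 1.21 (SE 0.42), with 4.45 CPM in *thia* 3 and at most 1.59 CPM elsewhere. The count of 3 was 1 without control 2, *thia* 2 or *thia* 3. The androgen genes *Cyp17a1* and *Star* overlapped, with log2 fold changes of -0.03 (SE 0.175) and -0.27 (SE 0.197). *Sox9* and *Amh*, the defining genes of Sertoli cells, overlapped too, at 0.12 (SE 0.156) and 0.25 (SE 0.133).

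In the prostaglandin pathway, which acts between Sertoli and germ cells of the fetal testis, single enzymes differed in opposite directions. *Ptgis*, prostacyclin synthase, was at 71.5, 73.2 and 71.4 CPM in control and at 102.2, 94.9 and 109.7 CPM in *thia* pools (log2 fold change 0.51, SE 0.0862, adjusted p = 0.201, edgeR). *Ptgr1*, a reductase that inactivates prostaglandins, was at 159.7, 202.9 and 162.9 CPM and at 137.4, 109.8 and 118.7 CPM (log2 fold change -0.52, SE 0.121). *Ptgir*, the prostacyclin receptor, was low at 0.433 to 0.658 CPM in control and 0.719 to 0.956 CPM in *thia* pools (log2 fold change 0.71, SE 0.298). The pools did not overlap in any of the 3. Over the 20 tested genes the median was 0.14, with 3 (15%) higher and 2 (10%) lower, beside 4.63% and 4.13% of all genes. The count of higher genes was 1 without control 2, control 3 or *thia* 2, and that of lower genes 1 without control 3, *thia* 1 or *thia* 2.

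Lists of metabolic, stress and other genes complete the comparison. Ribosomal protein genes were above 0 in 80 of 81 with a median of 0.17, and 2 were higher at an unadjusted p under 0.05. That count was 17 without *thia* 2, 11 without control 1, 1 without control 2 and 0 without control 3 or *thia* 3 (edgeR), and the median without one library was 0.08 to 0.26. Subunits of the respiratory chain had a median of 0.08, which was 0.01 without control 3 or *thia* 3. Of 43 genes of hypoxia, glycolysis and the integrated stress response 5 were higher and 0 lower, among them *Pfkl* (0.36), *Asns* (0.24) and *Tpi1* (0.30), and the count of 5 was 2 without control 2, 3 without *thia* 3 and 9 without control 1. Cell cycle genes had a median of -0.003, and xenobiotic and oxidative defence genes 0.08. Of 43 hearing genes 6 (14%) were higher and 0 lower, with a median of 0.12. Of 39 interferon response genes 3 (7.69%) were higher and 1 lower, with 31 above 0 and a median of 0.26. Of 29 genes of DNA methylation 0 were higher and 4 (13.8%) lower (edgeR), with a median of -0.09. Over all genes 4.63% were higher and 4.13% lower. The interferon count of 3 was 10 without *thia* 2, 6 without control 1, 1 without control 2 and 0 without *thia* 1, and the DNA methylation count of 4 was 1 without control 3, 1 without *thia* 3 and 2 without *thia* 2. Erythroid genes had a median of 0.04, and of -0.40 with 9 of 32 lower without *thia* 2, and of 0.32 without control 1. The lists not described above had medians between -0.15 and 0.19. Fold changes followed gene length to some extent. The median was 0.08 in the fifth of genes with the shortest exonic length and -0.06 in the fifth with the longest, and the lower genes at an unadjusted p under 0.05 had a median exonic length of 5245 bases, against 3174 for the higher and 3985 for all. Their level differed too. The mean of the 6 pools had a median of 23.9 CPM over the lower genes, 2.95 CPM over the higher and 15.8 CPM over all. List counts were not compared with genes of a like level. Centred within bins of length, the median of the ribosomal genes was 0.11, that of the respiratory chain 0.01, that of the splicing list -0.16 and that of the gonocyte list -0.24.

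The genes named in F1 were looked up in F3, where other pools and other controls were used. Of the 30 higher genes, 24 were above 0 in F3, and 10 were higher at an unadjusted p under 0.05, against 11.1% of the genes tested in both generations. Of the 30 lower genes, 27 were below 0, and 10 were lower at an unadjusted p under 0.05, against 10.2%. Over all genes 50.5% were above 0 in F3. Without the F3 pool *thia* 2, 24 of the 30 higher genes were above 0 and 9 were higher at that p (background 12.2%), and 29 of the 30 lower genes were below 0 and 6 were lower (background 10.5%). Among the lower genes *Asz1* had log2 fold changes of -0.61 in F1 and -0.83 in F3, *Nanos3* -1.09 and -0.97, *Tex21* -0.75 and -1.10, and *Dppa5a* -0.82 and -0.73. Among the higher genes *Ntrk2* had 0.69 and 0.72, *Lamb3* 1.04 and 0.63, and *Myh4* 1.04 and 0.68. Some did not carry over. *Gldc* had -1.02 and 0.02, *Cyp11b1* -0.81 and 0.53, and *Crym*, a thyroid hormone binding protein, 1.54 and -0.53. The difference between the generations was tested for 19066 of these genes in one fit of the 12 libraries, and *Gas5* was the 1 gene with an adjusted p under 0.1 (edgeR), 0.00524% of them. It was at 58.2, 57.8 and 58.4 CPM in control and 102.4, 93.8 and 99.1 CPM in *thia* pools of F1, while its log2 fold change in F3 was -0.65.

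**Figure D5:**
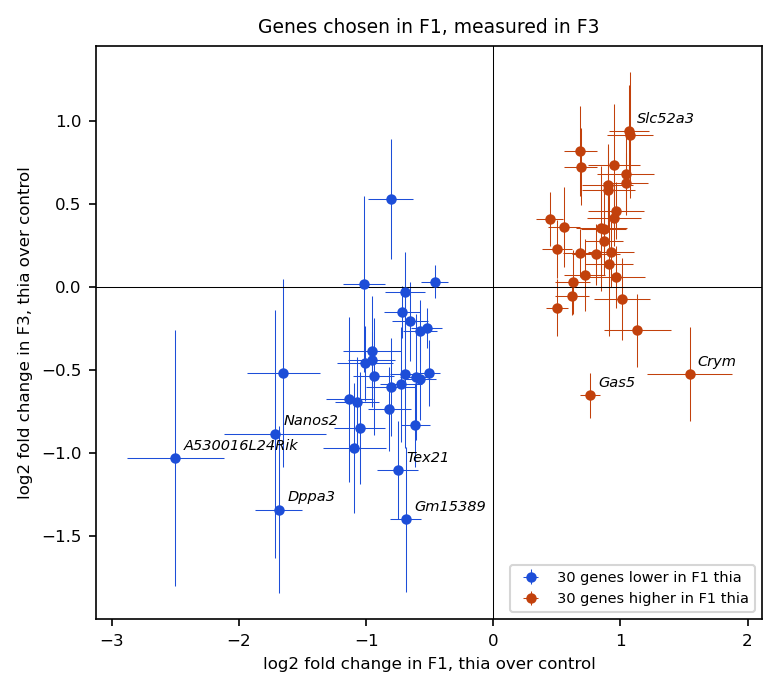
Log2 fold change in F1 (horizontal) and in F3 (vertical) of the 30 lower (blue) and 30 higher (orange) genes with the smallest p in F1, with 1 SE as bars. The genes were chosen on F1, so only the vertical position is open, and 27 of 30 blue points lie below 0 and 24 of 30 orange points above 0, with *Gas5* at 0.76 and -0.65 as an exception.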

How the data were processed

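Total RNA of pooled E15.5 testes was sequenced by the authors from strand-specific paired-end libraries. Per the labels and the submitters' processing notes, the tools were bcl2fastq 2.20.0.422, HISAT2 2.1.0 on mm10, featureCounts and DESeq2 2.11.40.7. The authors deposited raw, unscaled counts, with 35976 gene symbols per library. Whether reads or read pairs were counted is not given in the sources used here.

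The 6 F1 libraries were fitted with edgeR 4.0.16 in R 4.3.3, after filterByExpr (minimum count 10) and TMM scaling, with the quasi-likelihood test and Benjamini-Hochberg adjustment over all 19137 genes. Litters are not stated in the labels, so p-values measure the spread between these pools. The paper states that each assay drew on males of different litters. It also states that the experiment was repeated, with animals of each generation from independent treatments. Which treatment a pool came from is not in the labels, so it was not in the fit. Alternatives covered DESeq2 1.42.0, scalings, filters, robust dispersions, a replicate block, all 12 libraries in one fit and leaving out each library. Centring by exonic length and F3 without *thia* 2 were added after the data were seen. The fit was tested on simulated data.

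The members, the 37 gene lists and the markers were chosen with earlier results of these data known. From genes with an unadjusted p under 0.05, pools that did not overlap and at least 1 CPM, the 30 with the smallest p and the 8 with the largest change in each direction were named, with the 4 of smallest p in each list and up to 10 genes that stood apart in each pool. Other named genes, such as the 10 of the germ cell ratio, were chosen after their values were seen. Positions are from GENCODE M21.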

Additional observations from a re-analysis of the deposited data

Results flagged for a closer look

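The effect on *Gas5*, a host gene of small nucleolar RNAs, differed between the generations in a test of the difference itself. Its log2 fold change was 0.76 (SE 0.0808) in F1 and -0.65 in F3, and the F3 effect minus the F1 effect was -1.39 (adjusted p = 0.0193, edgeR, all 12 libraries in one fit). In F1 every *thia* pool was above every control pool. No other gene named here passed this test at an adjusted p under 0.1. The list of small nucleolar RNA host genes, which holds *Gas5*, was not higher as a group in F1. Of its 19 tested genes 1 (5.26%) was higher and 3 (15.8%) lower at an unadjusted p under 0.05 with edgeR. Its median was -0.15, and over all genes 4.63% were higher and 4.13% lower.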

How the results depend on the processing

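Replicate numbers did not pair the pools (correlation of deviations -0.031, -0.034 and 0.021), and with a replicate block 3 genes had an adjusted p under 0.15, 779 were higher and 618 lower at an unadjusted p under 0.05. The count of 2 genes at an adjusted p under 0.15 was 243 with no low-count filter, 15 with robust dispersions, 0 with all 12 libraries in one fit and 170 with DESeq2, and 0 to 20 without one library. The higher genes numbered 1389 with no filter, and the lower genes 347 (without *thia* 3) to 1285 (without control 1). With upper-quartile scaling 1016 genes were higher and 629 lower. Without one library, list medians spanned 0.048 to 1.127 for skeletal muscle, -0.012 to 0.182 for cartilage and bone, 0.025 to 0.181 for neuron and synapse, 0.263 to 0.402 for nicotinic receptors, 0.141 to 0.388 for mesonephros and duct, -0.237 to -0.049 for small nucleolar RNA host genes and -0.012 to 0.095 for immediate early and heat shock genes. The neuron median was 0.067 with at least 10 counts in every library, and that of DNA methylation -0.042 after centring by length. The muscle ratio was 0.969 without *thia* 2. At 1.5-fold, 87, 64 and 189 genes stood apart in control 1, 2 and 3 and 149, 192 and 86 in *thia* 1, 2 and 3. The cause of these differences was not tested. None of the 185 genes named by smallest p, largest change or list changed sign in these alternatives. Those named by smallest p or largest change were chosen for pools that did not overlap. Leaving out 1 pool could hardly turn their sign, so this says little about their stability. Of the genes named for *thia* 2, *Acta1* turned from 2.70 to -0.91 and *Atp1b4* from 5.05 to -0.05 without that pool. *Myog* turned from 1.38 to -0.33 and *Myod1* from 1.41 to -1.03. In 10 of 37 lists the median had another sign, or was 0, in some alternative, among them the piRNA list (0.054 without control 2), steroidogenesis (0.074 without *thia* 1) and cholesterol synthesis (-0.062 without control 3). The shallowest library was control 3, with 25081647 counts, and how the calls depend on depth was not tested.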
